A study of Mus musculus with 28 samples.

Results

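Condensins are ring-shaped protein machines that fold chromatin into loops, and 8 genes encode the subunits studied here: Smc2, Smc4, Ncapd2, Ncapg, Ncaph, Ncapd3, Ncapg2 and Ncaph2. They were taken by symbol from a count table of 49089 genes, and all 8 were found. C2C12 is an established mouse myoblast line, wild type per the labels, that stops dividing and fuses into myotubes when serum is lowered. Growth medium (GM) held 20% fetal bovine serum, and differentiation medium (DM), given to near-confluent cells, held 3% horse serum. There were 18 RNA-seq libraries in 6 groups of 3, namely GM and 12, 24, 48, 60 and 96 h in DM, all of the same line without further treatment. ATAC-seq, a measure of open chromatin, covered 2 libraries per condition, and Hi-C, a measure of contacts along chromosomes, covered 3 per condition, both in GM and at 60 h. The labels call the replicates biological and describe no separate cultures; the p-values therefore weigh differences against the scatter among these libraries, part of which may be technical.

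Each condensin joins a pair of ATPases, Smc2 and Smc4, to a kleisin that closes the ring and a pair of HEAT-repeat proteins that bind DNA. Condensin I uses the kleisin Ncaph with Ncapd2 and Ncapg, while condensin II uses the kleisin Ncaph2 with Ncapd3 and Ncapg2. As background, condensin II is found in the nucleus through interphase and starts to fold chromosomes in prophase, whereas condensin I is largely cytoplasmic until the nuclear envelope breaks down. Both are best known from dividing cells, and roles of condensin II in interphase nuclei have been described.

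The genes lie on separate chromosomes. In RefSeq's annotation of GRCm38.p6, whose main chromosomes are those of mm10, the shared ATPase genes are Smc2 at chr4:52439221-52488365 and Smc4 at chr3:69004738-69034623. The condensin I genes are Ncapd2 at chr6:125168007-125192100, Ncapg at chr5:45669891-45700547 and Ncaph at chr2:127103809-127133954. The condensin II genes are Ncapd3 at chr9:27030165-27096522, Ncapg2 at chr12:116405351-116463532 and Ncaph2 at chr15:89355719-89372850. RefSeq promoter windows, 250 bases before to 50 after a start site, were at hand for 7 of the 8 genes, all but Smc4. Ncapd3 had 2 windows, for 2 start sites. The 180 bases just before the start are shown for 5 genes, because they hold letters of motifs that genes of the cell division programme often share, or, for Ncaph2, none of them. Capitals mark those letters, and each line reads 5′ to 3′ on the gene's own strand. The stretches are chr4:52439041-52439220 (plus strand) for Smc2, chr6:125191587-125191766 (minus strand) for Ncapd2, chr5:45669745-45669924 (plus strand) for Ncapg, chr12:116405256-116405435 (plus strand) for Ncapg2 and chr15:89355539-89355718 (plus strand) for Ncaph2.
Smc2: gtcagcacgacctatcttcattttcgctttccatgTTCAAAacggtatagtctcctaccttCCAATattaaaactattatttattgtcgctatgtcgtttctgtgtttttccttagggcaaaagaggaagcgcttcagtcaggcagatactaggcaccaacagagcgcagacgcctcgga
Ncapd2: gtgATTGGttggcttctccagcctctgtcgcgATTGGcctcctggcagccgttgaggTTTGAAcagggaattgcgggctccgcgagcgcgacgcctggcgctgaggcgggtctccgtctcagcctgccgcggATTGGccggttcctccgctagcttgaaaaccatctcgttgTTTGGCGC
Ncapg: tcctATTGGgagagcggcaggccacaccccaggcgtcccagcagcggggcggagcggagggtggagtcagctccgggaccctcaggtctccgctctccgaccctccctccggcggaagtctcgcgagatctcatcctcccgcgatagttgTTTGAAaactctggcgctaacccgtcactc
Ncapg2: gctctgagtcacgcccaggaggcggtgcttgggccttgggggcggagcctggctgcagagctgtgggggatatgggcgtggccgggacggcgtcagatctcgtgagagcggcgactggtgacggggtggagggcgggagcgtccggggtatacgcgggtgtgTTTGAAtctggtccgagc
Ncaph2: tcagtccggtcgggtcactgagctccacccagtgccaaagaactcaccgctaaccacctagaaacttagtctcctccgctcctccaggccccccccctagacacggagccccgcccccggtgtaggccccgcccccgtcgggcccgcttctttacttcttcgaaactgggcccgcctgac

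The search covered both strands for the CHR letters TTTGAA and TTTAAA (the cell cycle gene homology region), CCAAT, the E2F-type letters TTTCCCGC, TTTGGCGC, TTTCGCGC and TTTGCCGC, and CAGCTG, a MyoD-type E-box. No 2 matches in these genes shared a base. Counted from the start site at 0, Ncapd2 held TTTGAA from −123 to −118. It also held CCAAT on the other strand, read there as ATTGG, starting at −177, −148 and −48, and TTTGGCGC ending at −1. Ncapg held TTTGAA from −30 to −25 and ATTGG at −176, and, just after its start at 31, TTTCCCGC on the other strand. Among condensin II genes, Ncapg2 held TTTGAA from −18 to −13, with TTTCCCGC on the other strand at −249 and 0, outside the stretch shown. Smc2 held TTTGAA on the other strand at −145 and again at 26, and CCAAT at −119. Ncaph held only CAGCTG, at −110, and neither Ncaph2 nor the first start of Ncapd3 held any of the letters. The second start of Ncapd3, at 27060416, held both CHR forms and the E-box letters.

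In all, 5 of the 7 genes held CHR letters, 3 held CCAAT, 3 held E2F-type letters and 2 held CAGCTG. Ncapd3 enters these counts only through its second start, which had no ATAC-seq peak in either condition. Of all 32851 RefSeq promoter windows, 27.6% held CHR letters, 37.4% CCAAT, 2.26% E2F-type letters and 16.3% CAGCTG. Of the 12881 windows of genes that passed the count filter in these cells, as all 8 members did, 19.5% held CHR letters, 37.8% CCAAT, 3.85% E2F-type letters and 15.8% CAGCTG. These shares are per window, and the members have 8 windows for 7 genes, of which 5, 3, 3 and 2 held the letters in the same order. The E2F-type letters were thus found in Ncapd2 and Ncapg of condensin I and Ncapg2 of condensin II. A match is a run of letters in this window and was not tested as a binding site. RefSeq places the outer end of Ncapg and Ncapg2 a little upstream of the start used for their window. For Ncapd2 that end, at 125192100, lies beyond the whole window, so all its letters fall within the annotated gene.

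All 8 genes passed the filter on low counts, and library totals were 24.2 to 36.4 M counts. The non-coding RNA genes Rn7s1 and Rn7s2 took 17.3 to 24.3% of them, and protein-coding genes 65.2 to 73.8%. The 3 libraries of 60 h stood apart, with 65.2 to 65.9% of counts in protein-coding genes against at least 67.4% in every other library. Their share in Rn7s1 and Rn7s2, 23.1 to 24.3%, overlapped that of the third 96 h library, at 23.2%. Levels are CPM, counts per M of the scaled library total, and changes are log2 fold changes ± the standard error (SE) of a fit to all 18 libraries. Called means an adjusted p under 0.05 in edgeR's quasi-likelihood test with Benjamini-Hochberg adjustment over 15303 genes. In GM the myoblast markers stood at 47.0 CPM (Myod1), 74.0 (Myf5) and 552 (Des), and Myog, the factor of terminal muscle differentiation, went from 13.4 CPM in GM to 803 at 96 h. Means of the fat, endothelial, neuronal and epithelial markers and of Ptprc, a leukocyte marker, were at most 0.0786 CPM in any group. Cd68, the other leukocyte marker, stood at 2.25 CPM in GM and 0.731 at 96 h. In bulk RNA, fewer cells of a kind and less RNA per cell cannot be told apart.

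Condensin transcripts rose briefly and then fell in steps. All 8 genes were higher at 12 h in DM than in GM, and all 8 were lower than in GM at 24, 48, 60 and 96 h. The fall came in a first step between 12 and 24 h and a second between 60 and 96 h, with small and divergent changes between. The subunits did not fall alike: at 96 h Ncapg of condensin I was 10.7-fold below GM and Ncaph2 of condensin II 1.72-fold below. Every gene had its highest group mean at 12 h and its lowest at 96 h. The F test of any difference from GM called all 8, as it did 86% of all genes tested. Each later comparison with GM uses the same 3 GM libraries.

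**Figure D1:**
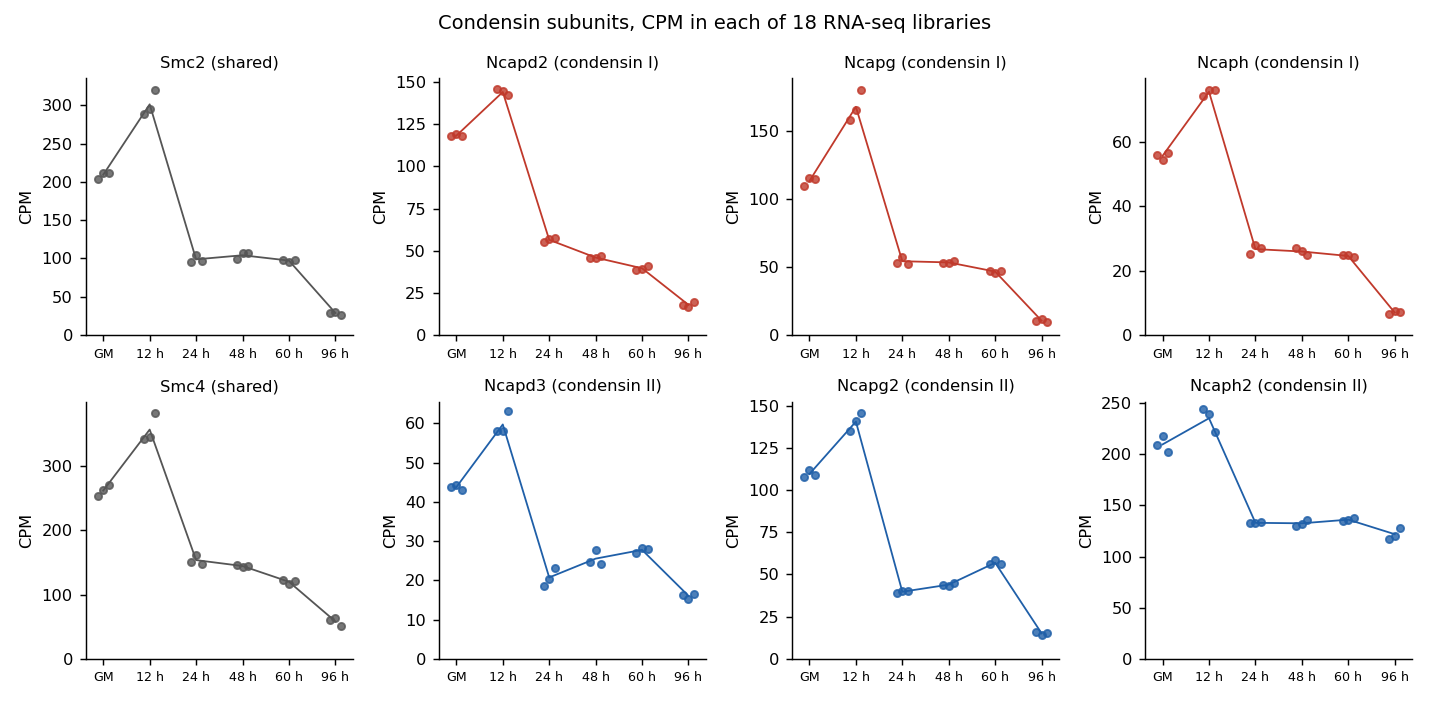
CPM of the 8 condensin genes in each of 18 RNA-seq libraries (points; 3 per group) against growth medium (GM) and hours in differentiation medium, with lines through group means and the vertical axis from 0. All panels peak at 12 h, and Ncapg2 and Ncapd3 of condensin II stand higher at 60 h than at 24 h, while Ncapd2, Ncapg and Ncaph do not.

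The shared ATPases Smc2 and Smc4, which both complexes need, rose at 12 h and fell in the same 2 steps. Smc2, one arm of the ring, stood at 204, 212 and 212 CPM in GM, 288, 295 and 320.3 at 12 h, and 95.5, 105 and 96.5 at 24 h. It then stood at 99.0, 107 and 107 CPM at 48 h, 98.4, 95.2 and 98.2 at 60 h, and 29.4, 30.5 and 26.8 at 96 h. The 12 h libraries were above all GM libraries, those of 24 to 60 h lay close together below every GM library, and those of 96 h were lowest. Against GM the change was 0.52 ± 0.05 at 12 h (adjusted p = 8.04e-08), −1.11 ± 0.05 at 60 h (adjusted p = 5.5e-14) and −2.86 ± 0.06 at 96 h (adjusted p = 8.13e-21), all in edgeR. Smc4, its partner, followed the same course, with group means ± SD (n = 3) of 262 ± 8.36 CPM in GM, 357 ± 22.8 at 12 h, 154 ± 7.50 at 24 h, 145 ± 1.61 at 48 h, 120.1 ± 2.94 at 60 h and 58.2 ± 5.78 at 96 h. At 96 h Smc4 stood at −2.17 ± 0.06 against GM (edgeR, adjusted p = 3.25e-18), beside −2.86 for Smc2.

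Ncapd2, a HEAT-repeat subunit of condensin I, fell at each step after 12 h. Its libraries stood at 118, 119 and 118 CPM in GM, 146, 144 and 142 at 12 h, and 54.9, 56.8 and 57.6 at 24 h. Later they stood at 45.6, 45.5 and 46.7 CPM at 48 h, 38.5, 39.3 and 41.0 at 60 h, and 17.6, 16.7 and 19.4 at 96 h. No library of one time overlapped those of the next. Against GM the changes were 0.29 ± 0.04 at 12 h (adjusted p = 1.8e-05), −1.58 ± 0.04 at 60 h (adjusted p = 1.05e-17) and −2.72 ± 0.05 at 96 h (adjusted p = 1.28e-21), by edgeR. Scarna10, a small guide RNA gene with 177554 counts over the 18 libraries, lies inside Ncapd2. The libraries were strand-specific per the labels, but the sources used here do not say whether the counting used strand, so reads of overlapping genes cannot be told apart.

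Ncapg and Ncaph, the other condensin I subunits, held nearly level between 24 and 48 h. Ncapg, a HEAT-repeat protein, stood at 109, 115 and 114 CPM in GM, 158, 165 and 179.8 at 12 h, and 53.1, 57.4 and 52.2 at 24 h. It stood at 52.8, 52.7 and 54.5 CPM at 48 h, 46.8, 45.7 and 47.4 at 60 h, and 10.7, 11.8 and 9.28 at 96 h. The 96 h libraries of Ncapg lay below every other library by a wide margin, at −3.42 ± 0.07 against GM (edgeR, adjusted p = 8.52e-21). Ncaph, the kleisin, stood at 56.0, 54.3 and 56.6 CPM in GM, 74.3, 76.1 and 76.2 at 12 h, and 25.1, 28.0 and 27.0 at 24 h. It stood at 27.0, 26.0 and 24.9 CPM at 48 h, 24.7, 24.8 and 24.1 at 60 h, and 6.45, 7.46 and 7.07 at 96 h. As with Ncapg, GM and 12 h libraries did not overlap, and the change at 96 h was −2.99 ± 0.06 (edgeR, adjusted p = 6.86e-21). The neighbouring gene Lcorl overlaps the end of Ncapg by 3367 bases.

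The condensin II HEAT-repeat genes Ncapd3 and Ncapg2 fell at 24 h, partly regained level by 60 h and fell again. Ncapd3 stood at 43.9, 44.3 and 43.0 CPM in GM, 58.0, 58.1 and 63.0 at 12 h, and 18.6, 20.3 and 23.2 at 24 h. It stood at 24.6, 27.7 and 24.3 CPM at 48 h, 26.9, 28.3 and 28.1 at 60 h, and 16.3, 15.4 and 16.5 at 96 h. On the log2 scale its 24 h libraries spread more widely than those of its other groups, the third being highest, and none reached the lowest 48 h library. Ncapg2 stood at 108, 112 and 109 CPM in GM, 135, 141 and 146 at 12 h, and 38.8, 40.1 and 40.3 at 24 h. It stood at 43.8, 43.2 and 44.9 CPM at 48 h, 56.0, 58.5 and 56.2 at 60 h, and 16.1, 14.2 and 15.0 at 96 h. Every 60 h library of Ncapg2 lay above every library of 24 and 48 h and below every library of GM. Against GM, Ncapd3 was at −1.08 ± 0.07 at 24 h (adjusted p = 6.89e-12), −0.66 ± 0.07 at 60 h (adjusted p = 1.43e-08) and −1.45 ± 0.07 at 96 h (adjusted p = 2.9e-14). Ncapg2 was at −1.46 ± 0.04 at 24 h (adjusted p = 7.13e-17), −0.94 ± 0.04 at 60 h (adjusted p = 3.8e-14) and −2.86 ± 0.05 at 96 h (adjusted p = 8.26e-22), again by edgeR.

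Ncaph2, the condensin II kleisin, changed least. It stood at 209, 218 and 202 CPM in GM, 245, 239.7 and 221 at 12 h, and 133, 133 and 134 at 24 h. It stood at 130.1, 132 and 135 CPM at 48 h, 135, 136 and 137 at 60 h, and 118, 119.9 and 128 at 96 h. The 12 h libraries were all above the GM libraries, although the third lay within a few CPM of the highest GM library, and the later groups formed a plateau. Against GM the change was 0.17 ± 0.04 at 12 h (adjusted p = 0.0055), −0.66 ± 0.04 at 24 h (adjusted p = 3.47e-11) and −0.78 ± 0.04 at 96 h (adjusted p = 8.18e-13), by edgeR. The genes Sco2 and Tymp overlap the end of Ncaph2 by 1221 and 1220 bases, and had 6503 and 724 counts over the 18 libraries. The span between the highest and lowest group means was 0.95 on the log2 scale for Ncaph2, a span that 37.6% of all genes tested exceeded, against 3.98 for Ncapg, which 2.05% exceeded.

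**Figure D2:**
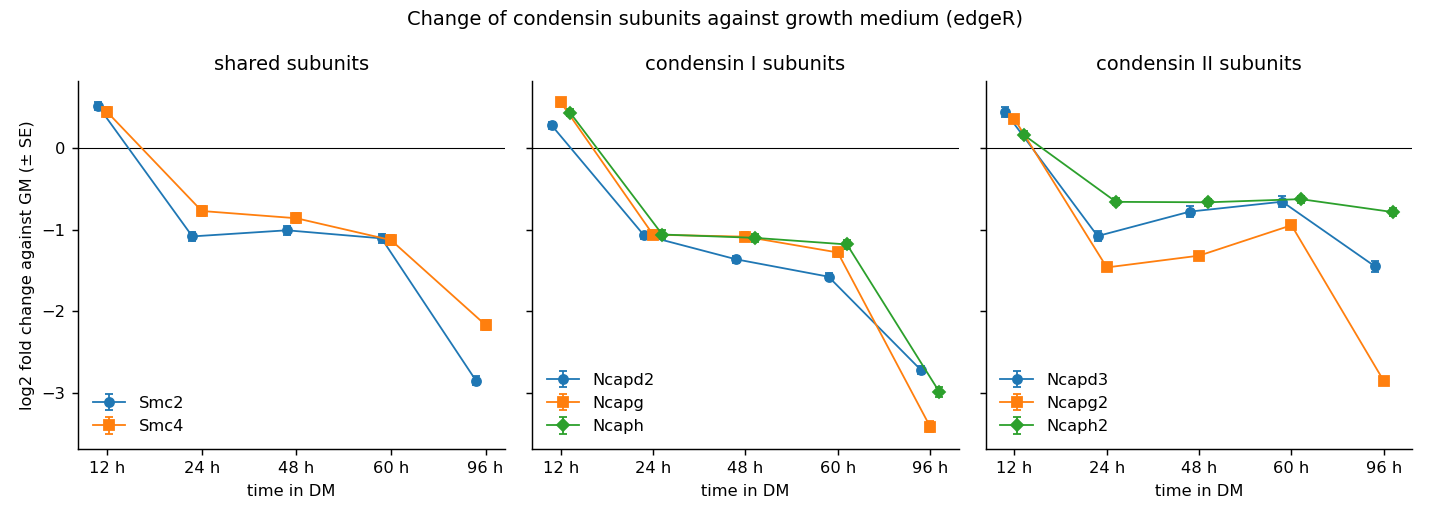
Log2 fold change against growth medium (± SE of the edgeR fit) at each time in differentiation medium, for the shared (left), condensin I (middle) and condensin II subunits (right). All 8 genes lie above 0 at 12 h and below 0 afterwards; at 96 h Ncapg reaches −3.42 and Ncaph2 −0.78.

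At 12 h the 8 calls were all higher, against 17.8% of all genes called higher, and the median change of the 8 was 0.44 where the median of all genes was 0.00. Ncapg rose most, by 1.48-fold, and Ncaph2 least, by 1.12-fold. At 24 h all 8 were lower than in GM (30.6% of all genes were called lower), by a median of −1.06. Ncapg2 was furthest down, at −1.46, and Ncaph2 least, at −0.66. At 48 h all 8 were again lower than in GM (32.8% of all genes), by a median of −1.05. At 60 h, the time shared with the chromatin assays, all 8 were lower (32.2% of all genes), by a median of −1.12. At 96 h all 8 were lower (34.1% of all genes), by a median of −2.79. No member's libraries overlapped those of GM at any of these times. How often the libraries of other genes overlapped was not counted, so this describes the members only.

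In the steps between neighbouring times, single subunits at times changed in different directions, and no test compared the complexes. From 12 to 24 h all 8 genes fell (26.5% of all genes were called lower), from −0.82 ± 0.04 for Ncaph2 to −1.82 ± 0.04 for Ncapg2. From 24 to 48 h, 3 HEAT-repeat genes changed: Ncapd2 of condensin I fell by 0.30 ± 0.04 (adjusted p = 2.26e-05), while, in condensin II, Ncapd3 rose by 0.30 ± 0.07 (adjusted p = 0.0018) and Ncapg2 by 0.14 ± 0.05 (adjusted p = 0.0182), by edgeR. That is 2 genes called higher, against 17.5% of all genes, and 1 called lower, against 14.8%. The Ncapg2 call was lost without GM replicate 2 (0.12, adjusted p = 0.0577), without 24 h replicate 1 (0.10, adjusted p = 0.166) and without 48 h replicate 1 (0.14, adjusted p = 0.0559), 2 (0.13, adjusted p = 0.0655) or 3 (0.10, adjusted p = 0.161) in edgeR. The remaining 5 genes were not called, with changes of 0.08 for Smc2, −0.09 for Smc4, −0.02 for Ncapg, −0.04 for Ncaph and −0.01 for Ncaph2.

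From 48 to 60 h, Ncapg2 rose by 0.37 ± 0.05 (edgeR, adjusted p = 3.78e-06), the 1 gene called higher, where 15.8% of all genes were. Smc4 (−0.27 ± 0.06, adjusted p = 0.00202), Ncapd2 (−0.21 ± 0.05, adjusted p = 0.00166) and Ncapg (−0.19 ± 0.06, adjusted p = 0.0205) fell in the same edgeR fit. These are 3 genes called lower, where 11.3% of all genes were. The Ncapg call was lost in edgeR without 60 h replicate 1 (−0.19, adjusted p = 0.051) or 2 (−0.18, adjusted p = 0.0711). Not called were Smc2 at −0.10 (adjusted p = 0.171), Ncaph at −0.08 (adjusted p = 0.276), Ncapd3 at 0.12 (adjusted p = 0.198) and Ncaph2 at 0.04 (adjusted p = 0.56). Smc2 was called lower in edgeR without 12 h replicate 3 (−0.13, adjusted p = 0.0444), with the CPM filter (−0.13, adjusted p = 0.0486), with the libraries of the contrast only (−0.13, adjusted p = 0.0146) and with total-count scaling (−0.20, adjusted p = 0.015). Scaling to total counts alone called 5 genes lower, adding Smc2 and Ncaph, and turned Ncaph2 to −0.06. The 60 h libraries had a lower protein-coding share of counts than all others; with protein-coding genes only, 1 gene was again called higher and 3 lower in this step.

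From 60 to 96 h all 8 genes fell, where 24.6% of all genes were called lower. The changes were −2.14 ± 0.07 for Ncapg, −1.91 ± 0.05 for Ncapg2, −1.81 ± 0.06 for Ncaph, −1.75 ± 0.06 for Smc2, −1.15 ± 0.05 for Ncapd2, −1.04 ± 0.06 for Smc4, −0.79 ± 0.07 for Ncapd3 and −0.16 ± 0.04 for Ncaph2. The small fall of Ncaph2 (edgeR, adjusted p = 0.00559) was not called without 96 h replicate 1 (−0.11, adjusted p = 0.0761) or 2 (−0.13, adjusted p = 0.0544). In this step Ncapg2 of condensin II had a change between those of Ncapg and Ncaph, while Ncapd3 and Ncaph2 fell least. Of all genes tested, 0.98% had a fold change at or below that of Ncapg2 in this step.

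Condensin I and II were compared through their counterpart subunits within each library, which removes differences in depth. CPM values of different genes are not comparable in level, since gene length enters, so only the change of each log2 ratio from its GM mean was read. The ratio of Ncapd2 to Ncapd3 (log2) was 1.42, 1.42 and 1.45 in GM, 0.52, 0.47 and 0.55 at 60 h, and 0.11, 0.12 and 0.23 at 96 h. It had moved by −0.16 at 12 h, 0.02 at 24 h, −0.58 at 48 h, −0.92 at 60 h and −1.28 at 96 h, and only the 24 h libraries overlapped those of GM. The ratio of Ncapg to Ncapg2 first moved up, by 0.21 at 12 h, 0.40 at 24 h and 0.23 at 48 h, and then below its GM mean, by −0.33 at 60 h and −0.56 at 96 h. The kleisin ratio, Ncaph to Ncaph2, moved by 0.28 at 12 h, −0.40 at 24 h, −0.44 at 48 h, −0.56 at 60 h and −2.20 at 96 h. No library of the Ncapg or Ncaph ratios overlapped the GM libraries at any time. At 60 h all 3 ratios were thus below GM, while at 24 h they lay on different sides of it.

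Averaged over the 3 subunits on the log2 scale, condensin I minus condensin II was −0.15, −0.18 and −0.10 in GM. It was −0.06, −0.04 and −0.02 at 12 h and −0.13, −0.08 and −0.21 at 24 h. It was −0.37, −0.45 and −0.41 at 48 h, −0.73, −0.78 and −0.74 at 60 h, and −1.55, −1.38 and −1.54 at 96 h. The 12 h libraries lay above all GM libraries, those of 24 h overlapped them, and those of 48, 60 and 96 h below, each time further. Relative to GM the ratio of the complexes' subunit transcripts stood at 0.658 at 60 h and 0.393 at 96 h. The condensin I mean had by then moved by −1.34 and −3.04, and the condensin II mean by −0.74 and −1.69. Taken as summed CPM in place of the mean of logs, the change was −0.16 at 24 h in place of 0.00, and −0.66 at 60 h and −1.77 at 96 h. No p-value is given for these averages, since the genes were chosen as a set, and 3 libraries against 3 cannot give a 2-sided exact permutation p below 0.1.

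**Figure D3:**
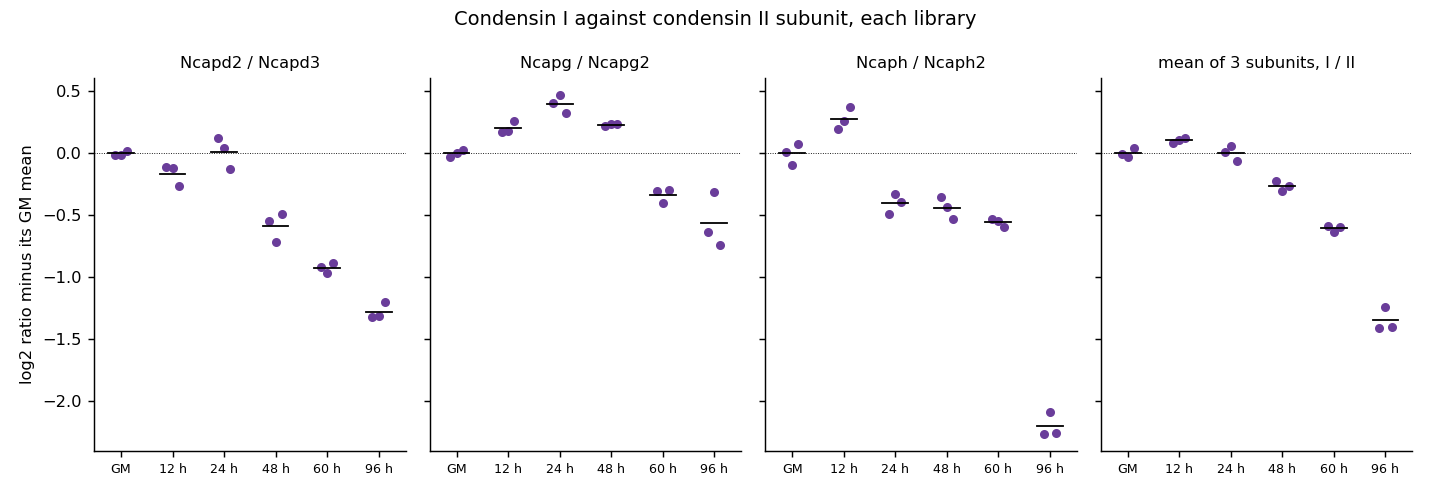
Log2 ratio of each condensin I subunit to its condensin II counterpart, and of the means of the 3 subunits, in each library minus its GM mean (points; bars are group means). The averaged ratio stays near 0 up to 24 h and then declines to −0.60 at 60 h and −1.35 at 96 h, while the Ncapg to Ncapg2 ratio is above 0 until 48 h.

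Among themselves, the members' log2 CPM over the 18 libraries ran closest for Smc2 with Ncapg and with Ncaph (Pearson r = 0.997 for both) and for Ncapg with Ncaph (r = 0.996). The lowest value was that of Ncapg with Ncaph2 (r = 0.828), and Ncapd3 ran closest to its complex partner Ncapg2 (r = 0.96). Ncapg2 itself ran closer to Smc2 (r = 0.982) and to Ncaph (0.978) and Ncapg (0.97) of condensin I. Its value with Ncaph2 of its own complex was 0.887. These 18 points share 6 groups, so the values describe the time course. Among 9370 other genes whose mean log2 CPM was 3 or more, those most like the condensin I mean were Cdca2, a chromatin-bound phosphatase adaptor (r = 0.9977), Cdk1, the mitotic kinase (0.9976), Ska3 of the kinetochore (0.9976), Spag5 of the spindle (0.9971) and Fancd2 of DNA crosslink repair (0.997). Those most like the condensin II mean were Topbp1 of the replication checkpoint (0.9967), Rfc5 of the clamp loader (0.9932), Cdc7, the kinase that fires replication origins (0.9931), Rpa1, which binds single-stranded DNA (0.9918), and Haus6 of the spindle (0.9916). Many genes ran nearly as close, since r was at least 0.95 for 351 genes with the condensin I mean and 319 with the condensin II mean.

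Other genes of the chromosome and the cell cycle give the setting in which the condensin genes moved. At 12 h, 15 of 15 genes of G2 and mitosis were called higher (median 0.57). Of 15 S phase genes, 7 were called higher and 2 lower (median 0.13). Of all genes, 17.8% were called higher and 17.2% lower at that time. At 60 h against GM both lists were lower throughout, 15 of 15 each, where 32.2% of all genes were called lower. Medians were −1.63 for G2 and mitosis and −1.23 for S phase, beside −1.28 for condensin I and −0.66 for condensin II. The lowest were Cdc20, the activator of anaphase (−2.27 ± 0.06), and the centromere proteins Cenpf (−1.95 ± 0.06) and Cenpe (−1.92 ± 0.05). Among S phase genes they were the licensing factor Cdt1 (−1.97 ± 0.10), the polymerase Pole (−1.64 ± 0.07) and the helicase subunit Mcm3 (−1.45 ± 0.06). From 48 to 60 h the lists parted: 13 of 15 S phase genes rose (median 0.56) and 14 of 15 genes of G2 and mitosis fell (median −0.57). Of all genes, 15.8% were called higher and 11.3% lower. In that step Ncapg2 rose, and Smc4, Ncapd2 and Ncapg fell.

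Of 20 condensation partners and mitotic kinases, 15 were lower and 4 higher at 60 h than in GM (median −1.34). Of all genes, 32.2% were called lower and 33.1% higher in this comparison, which also holds for the lists below. The lowest were Plk1, a mitotic kinase (−2.23 ± 0.05), Mki67, which coats mitotic chromosomes (−2.21 ± 0.05), and Incenp, the scaffold of the chromosomal passenger complex (−1.96 ± 0.06). Btrc, a ubiquitin ligase subunit (0.46 ± 0.06), and Akap8l, a kinase anchor protein (0.29 ± 0.07), were higher. Mcph1, known to restrain condensin II in interphase and picked out after its values were seen, fell from 30.7 to 17.4 CPM, by 0.81 ± 0.06 (edgeR, adjusted p = 8.65e-11). Cohesin, the related ring that holds sister chromatids together and extrudes interphase loops, moved less, with 7 of 10 genes lower and 2 higher at 60 h (median −0.30). Rad21, its kleisin, was at −0.90 ± 0.05, Pds5b at −0.39 ± 0.06 and the loader Nipbl at −0.38 ± 0.09, while Stag2 (0.28 ± 0.05) and Mau2 (0.15 ± 0.05) were higher. Of 7 genes of the Smc5 and Smc6 complex with Smchd1, 5 were lower and 1 higher (median −0.22). Nsmce4a was at −0.44 ± 0.06, Smchd1 at −0.30 ± 0.05 and Smc6 at −0.29 ± 0.07, against 0.73 ± 0.06 for Nsmce3.

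**Figure D4:**
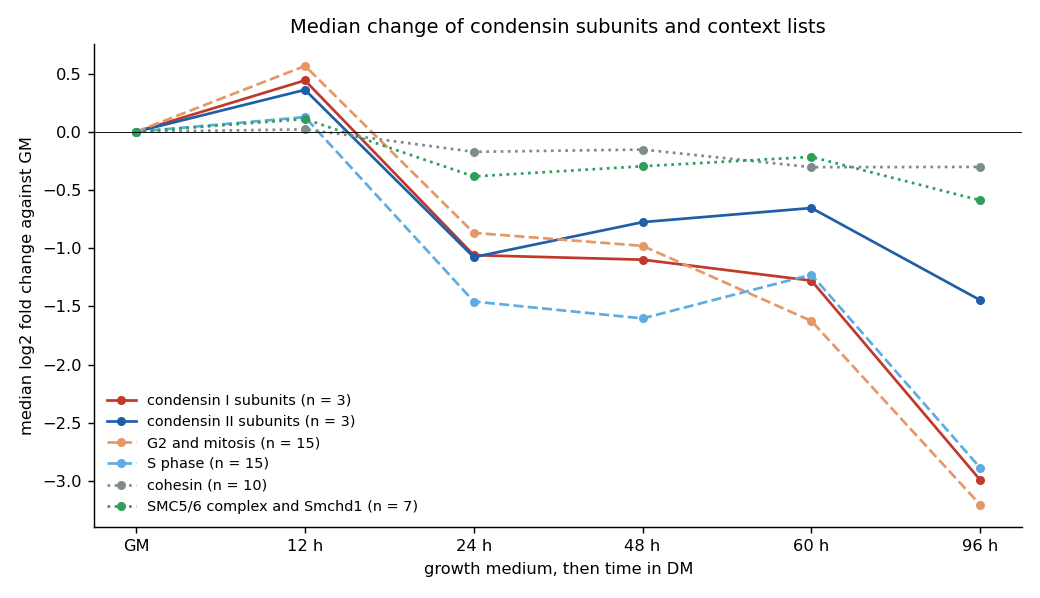
Median log2 fold change against growth medium of condensin I and II subunits (3 genes each) beside 4 lists of other genes, by time in differentiation medium. The medians of the complexes stand at −1.06 and −1.08 at 24 h. By 96 h that of condensin I is at −2.99, between the G2 and mitosis list at −3.20 and the S phase list at −2.89, while cohesin is at −0.30. The condensin II median at 96 h, −1.45, is the value of Ncapd3, with Ncapg2 at −2.86 and Ncaph2 at −0.78.

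Chromatin was open in both conditions at a start of each condensin gene with a RefSeq window. Each of the 7 genes with a RefSeq window had an ATAC-seq peak covering its start in the GM list and in the 60 h list; the second start of Ncapd3 had none. Of 10068 genes that passed the count filter and had a window, 95.3% had a peak within 1 kb of a start in the GM list and 95.6% at 60 h, so the members stood with most genes. The peak over the Ncapg2 start ran from 116404942 to 116406093 in GM and from 116404933 to 116406058 at 60 h, with an authors' fold enrichment of 8.02 and 8.14. Within the GM list 82.0% of promoter peaks had a lower fold than that of Ncapg2, and 24.2% a lower one than that of Ncapd3, at 4.32. Ncapg2 was thus highest and Ncapd3 lowest of the 7 in the GM list. Fold values are the authors' and were not compared between the lists, 1 of which was deposited per condition. In Smc4, the strongest of 3 peaks at 60 h covered the gene's first base, from 69004222 to 69006560. In GM the strongest of 4 peaks at Smc4 lay inside the gene, from 69020191 to 69020626. Whether a weaker GM peak covered the first base was not read here.

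Hi-C at 60 h gives the chromosome folding measured when condensin I transcripts stood at 0.394 of GM and condensin II transcripts at 0.599. Each value is taken from the mean log2 CPM of the 3 subunits. By the same measure the shared Smc2 and Smc4 transcripts stood at 0.462 of GM. Protein levels of the complexes were not measured here. The authors deposited 2416 topologically associating domains (TADs) in GM and 2368 at 60 h, with a median length of 920.0 kb in both and mean lengths of 965 and 983 kb. Boundaries, 40 kb bins between domains, numbered 2467 in GM and 2417 at 60 h, and 1229 lay in the same bin, 49.8% of the GM set and 50.8% of the 60 h set. Counting bins within 40 kb of each other as shared raised these to 82.0% and 83.7%. Of the 1229 same-bin boundaries, 83.4% had a higher authors' strength score at 60 h, with median scores of 1.03 in GM and 1.14 at 60 h. The sources used here do not give the score's scale, so no size of change is read from it.

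Loops were fewer and shorter in the 60 h calls. The deposited table lists 63732 loops, 32587 called in GM only, 24031 at 60 h only and 7114 in both. Shared loops were 17.9% of all 39701 GM loops and 22.8% of all 31145 loops at 60 h. The median span was 600.0 kb for GM-only loops, 550.0 kb for 60 h-only loops and 325 kb for shared loops. Spans over 1 Mb made up 17.5% of all GM loops and 14.1% of all 60 h loops. With 1 set of calls per condition there is no replicate check. The deposited loops are labelled as filtered by reads, and depth of the maps was not used here. A difference in depth therefore cannot be told apart from a difference in loops. Whether the condensin transcript levels bear on these folding differences was not tested.

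**Figure D5:**
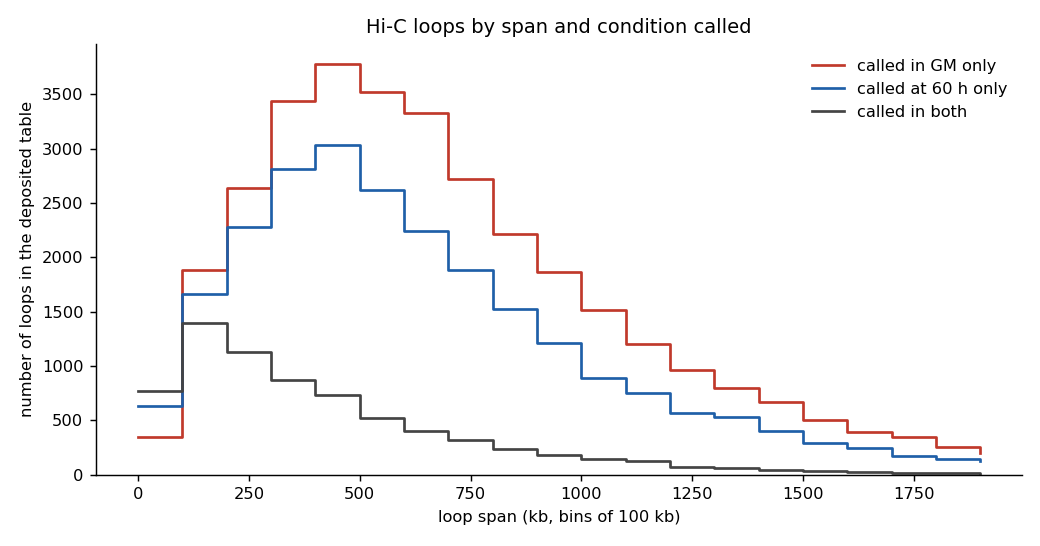
Number of Hi-C loops in the deposited table by distance between their anchors (bins of 100 kb), for loops called in growth medium only, at 60 h only, or in both. Shared loops are mostly short (median 325 kb), and GM-only loops outnumber 60 h-only loops in every bin drawn but the shortest.

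At the condensin loci themselves, domain ends were identical in both conditions for some genes and differed for others. How often domains around other genes were identical was not counted, so this describes the members only. Smc2, Ncapd2 and Ncapg2 each lay within a domain with identical ends in GM and at 60 h, of 880.0, 1000 and 680.0 kb. The domains of Ncapg, Ncaph and Ncaph2 differed by 1 bin of 40 kb at one end. Smc4 lay on a boundary bin, chr3:69000001-69040000, in both conditions. For Ncapd3 the calls differed more: in GM it lay in a domain of 1600 kb, 143 kb from the nearest boundary. At 60 h a boundary bin, chr9:27080001-27120000, overlapped the gene. Ncapg had the most loop anchors, with 6 loops called in GM only, 3 at 60 h only and 1 in both, and Smc2 had 3 in GM only and 3 at 60 h only. Ncapg2 had 2 in GM only and 1 at 60 h only, Ncapd2 and Ncaph2 each 1 in GM only, and Ncapd3 1 at 60 h only. Smc4 and Ncaph had none, where 87.6% of 13519 genes that passed the count filter and had RefSeq coordinates had at least 1 loop and the median was 3.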

How the data were processed

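Whole-number read counts per gene were deposited by the authors, unscaled. Per the submitters' processing notes, the tools included RSEM 1.3.0, STAR and DESeq2 (RNA-seq), Bowtie2 2.2.6 and MACS2 2.2.7 (ATAC-seq) and HiC-Pro 2.9.0, on build mm10. The sources used here do not give the annotation or the strand setting of the counting. The deposited peak lists, 1 per condition, give a fold enrichment (a ratio) and −log10 q per peak. The authors' boundary files give a strength score on 40 kb bins, and the deposited loop table gives 25 kb anchors and the condition of each call.

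Of 49089 genes, 15303 passed edgeR's filterByExpr, and 22315 had no count in any library. edgeR 4.0.16 in R 4.3.3 fitted all 18 libraries with TMM scaling and group as the factor (12 residual degrees of freedom, biological coefficient of variation 0.0621). Log2 CPM used a prior count of 2. Depth was 24.2 to 36.4 M counts per library. Named genes were all 8 members, the 5 genes most like each complex's mean, and of each list at most 3 called genes with the largest change at 60 h and 2 called against them. The members and lists were chosen with earlier results of these data known. Times and replicate numbers came from sample titles, because the last time in the protocol text varies by sample. Alternatives were other scalings, filters, tests (DESeq2 1.42.0, limma 3.58.1), protein-coding genes only, the contrast's libraries only, a replicate block and each library left out. Levels per coding length, planned for comparing genes, were not run because no lengths were used here. Sgo1, Nsmce3 and Mymk were matched to the table's older symbols through RefSeq synonyms. Signal tracks were not used here.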

Additional observations from a re-analysis of the deposited data

How the results depend on the processing

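Against GM, all 8 condensin genes kept their direction and call at every time under each scaling, filter, test, gene set and left-out library. Smaller steps moved. From 24 to 48 h, 1 gene in place of 2 was called higher with total-count scaling, with no count filter and with the libraries of the contrast only, and 1 to 2 with each library left out in turn; from 48 to 60 h, total-count scaling called 5 genes lower in place of 3. Uncalled changes near 0 turned sign: Ncaph2 from 48 to 60 h to −0.0641 (total-count scaling) and −0.00315 (without 48 h replicate 1; left-out range −0.00315 to 0.0476), Ncaph2 from 24 to 48 h to 0.00336 (protein-coding genes only), and Ncapg from 24 to 48 h to 0.00845 (without 24 h replicate 2; left-out range −0.0666 to 0.00845). The change of condensin I against II, as the log2 of summed CPM, was 0.17 at 12 h, −0.16 at 24 h (turned from 0.00), −0.35 at 48 h, −0.66 at 60 h and −1.77 at 96 h; the most abundant subunit counts most there by construction. Boundaries shared rose to 82.0% (GM) and 83.7% (60 h) within 40 kb, and to 62.6% and 63.9% in the upper part of the scores, where 89.8% of same-bin boundaries scored higher at 60 h. Replicate numbers are shared by all groups, and of 45 pairs of same-numbered libraries 9 had deviations correlated over 0.1 (range −0.497 to 0.327). Pairs with different numbers were not compared, so this cannot show whether same-numbered libraries share a culture or batch. With the replicate block all 8 genes were again called lower at 60 h (Ncapd2 −1.58, adjusted p = 4.53e-16 by edgeR), and no call of a member changed in any contrast. Depth limited no member; the Hi-C and ATAC-seq values have no replicate check.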
